A study of Dunaliella salina with 9 samples.

Results

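The subject is a set of 147 transcript clusters of the green alga Dunaliella salina that were higher at 600 and lower at 1500 µmol photons m⁻² s⁻¹ than at 150. They were taken from 76875 clusters measured by RNA sequencing. Abundance was expressed as CPM, the reads of a cluster per 1000000 reads counted in its library, and averaged over the 3 libraries of a group. A cluster was a member if it averaged at least 5 CPM in cells kept at 150 (LL), was at least 2-fold higher in cells moved to 600 (ML) and at least 2-fold lower in cells moved to 1500 (HL). The lowest ML library also had to lie above the highest LL library, and the highest HL library below the lowest LL library. The direction and minimum size of every difference among the 3 groups were therefore fixed by the choice and are given here as description.

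Dunaliella salina is a unicellular alga of brines that lacks a rigid cell wall and is known for β-carotene and glycerol accumulation. In green algae, acclimation to stronger light is known to involve smaller light-harvesting antennae, thermal dissipation of excess excitation through the xanthophyll cycle, repair of photosystem II and removal of reactive oxygen. Moderate light can speed up photosynthesis and growth, whereas light beyond the capacity of photosynthesis can damage photosystem II. Which of these processes the 147 clusters serve could not be read from the data, because the files give the clusters as numbers without gene names or sequences.

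All cultures were kept at 22 °C in days of 16 h and nights of 8 h, at an irradiance of 150 before the experiment, collected in mid-exponential phase and transferred to fresh medium. The irradiance then stayed at 150 (LL) or was stepped up once to 600 (ML) or 1500 (HL), in the same unit, and each group was sequenced as 3 libraries. The series title names photoacclimation to high irradiance as the question. The sources used here give no time between the step and the harvest. Nothing in the labels tells separate cultures from separate preparations, so the spread among the libraries of a group, and any p-value built on it, may be partly technical. Depth was even, from 17778225 to 19643714 counts per library over the 9 libraries.

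The members were mostly of low to moderate abundance. Their group means ran from 5.00 to 310 CPM in LL with a median of 9.75, from 10.3 to 672 CPM in ML with a median of 22.8, and from 0.411 to 152 CPM in HL with a median of 3.51. Per kilobase of cluster, the median member stood at 5.64 FPKM in LL, at 13.4 in ML and at 2.06 in HL (fragments per kilobase, scaled to depth). A member was backed by a median of 178 counts per library in LL, 437 in ML and 69.5 in HL, so the HL values carry the largest counting error. Of all counts, the members together held 0.290% ± 0.00708 in the LL libraries, 0.728% ± 0.0622 in the ML libraries and 0.0989% ± 0.00629 in the HL libraries (SD, n = 3 each).

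The rise stayed near its minimum in most members, and the fall was more spread out. The ratio of ML to LL means had a median of 2.24 and reached 4.81: it was below 2.5 for 104 members, 2.5 to 3 for 27, 3 to 4 for 13 and at least 4 for 3. The ratio of LL to HL means had a median of 2.51 and a longer tail: it was below 2.5 for 71 members, 2.5 to 3 for 35, 3 to 4 for 20, 4 to 8 for 17 and above 8 for 4. In 55 members both ratios were below 2.5, and in 9 both were at least 3. ML over HL, the widest contrast, had a median ratio of 5.85 and ranged from 4.21 to 843.

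**Figure D1:**
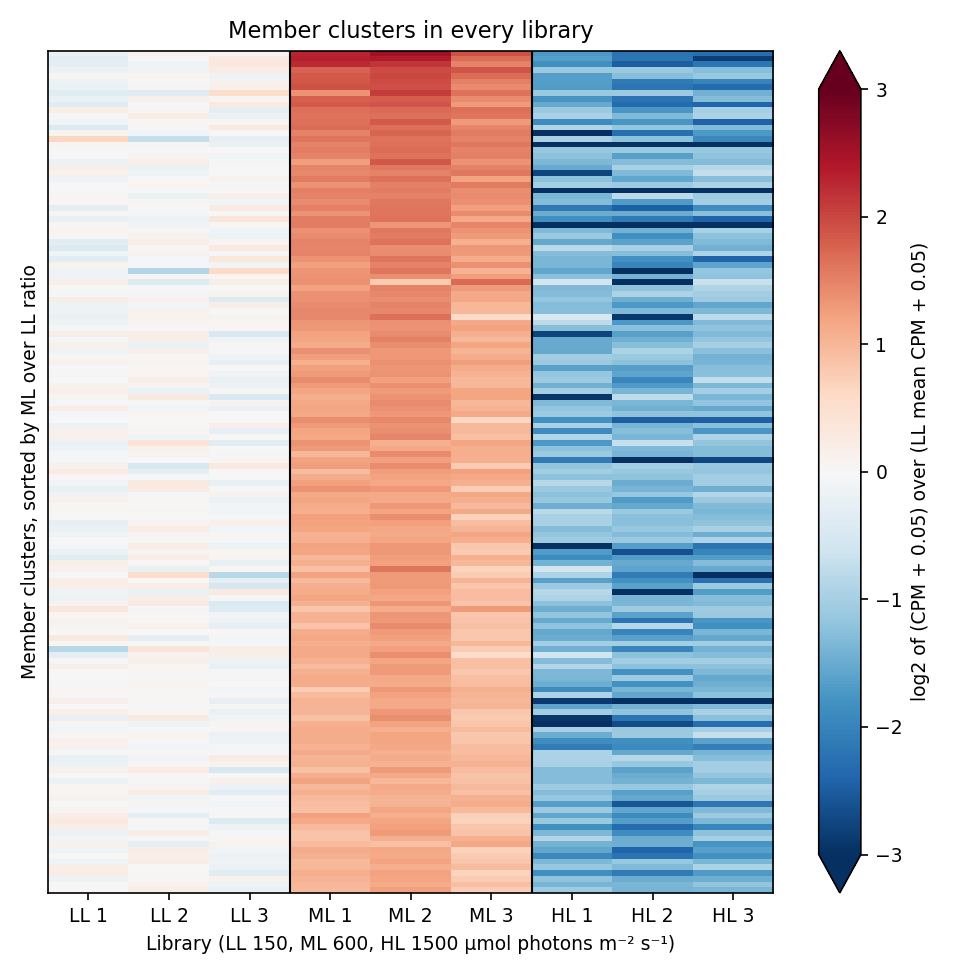
Abundance of the 147 members (rows, sorted by the ratio of ML to LL) in the 9 libraries (columns), as log2 of CPM over the LL mean with 0.05 added to both; red is above and blue below the LL mean, and the colours end at −3 and 3. Red fills the 3 ML columns and is palest in ML replicate 3, while the HL columns are blue with a few much darker cells.

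The rule required that single libraries of the groups not overlap, and in most members the gap was at least 1.5-fold. The lowest ML library exceeded the highest LL library by a median factor of 1.81, with a range of 1.17 to 3.48, and by at least 1.5-fold in 131 members. The lowest LL library exceeded the highest HL library by a median factor of 1.98, with a range of 1.07 to 82.6, and by at least 1.5-fold in 131 members as well. Members just inside the limits had an ML over LL ratio of 2.003 or 2.004, and the nearest clusters outside, meeting every other condition, had 1.998 and 1.995. For HL over LL the values were 0.494 and 0.492 inside and 0.5004 and 0.5005 outside. For the LL mean they were 5.00 and 5.02 CPM inside, against 4.98 and 4.97 outside. The limit on the rise was the one that most often stood alone in the way: 811 clusters failed it only, 572 failed only the LL minimum and 232 only the fall. Another 8 clusters passed both folds and had overlapping libraries.

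All 147 members passed the expression filter, and nearly all passed the test over the whole table, which the choice of members makes likely. In edgeR's quasi-likelihood test with Benjamini-Hochberg adjustment over 34377 clusters, 142 of the 147 were called higher in ML than in LL, where 17.1% of all clusters tested were called in that direction. Lower in HL than in LL were 143, against 22.4% of all clusters, and lower in HL than in ML all 147, against 29.9%. Called in both directions against LL were 142, where 6.27% of all clusters were. The median log2 fold change of members was 1.13 for ML against LL, 0.04 over all clusters tested, and −1.16 for HL against LL, 0.01 over all. Both comparisons with LL use the same 3 LL libraries. These values use TMM scaling, which adjusts library sizes for differences in composition. With library totals alone the members' medians were 1.17 and −1.33, and the median of all clusters for HL against LL moved from 0.01 to −0.15.

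The 5 members without both calls were long clusters with uneven libraries. Their lengths, implied by the ratio of counts to FPKM, were 2559 to 5952 bases, and 48 of the 147 members had at least 2500 bases. All 5 carried non-whole counts, as did 88 of the 147. Such counts can arise when a read is divided among similar sequences. The first of them had 17.8, 25.6 and 9.95 CPM in LL, 41.4, 43.1 and 29.98 in ML and 9.32, 4.15 and 1.60 in HL. In 3 of the 5 the second HL library stood at 0 while the other HL libraries held 1.53 to 4.14 CPM.

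Only 4 members are given by identifier, since the numbers carry no function: the pair with the highest ML means, and the pair with the lowest HL to LL ratio among the other members of at least 20 CPM in LL. Cluster-5009.29714 was the most abundant member. It had 311, 315 and 302 CPM in the LL libraries, 649, 704 and 663 in ML and 149, 144 and 162 in HL. The groups were far apart relative to their spread, with means of 310 ± 6.96, 672 ± 28.6 and 152 ± 9.49 CPM (SD, n = 3 each) in LL, ML and HL. Its log2 fold change was 1.08 (SE 0.0455) for ML against LL and −0.86 (SE 0.0456) for HL against LL, with TMM scaling, and its ratio of LL to HL on library totals was 2.04. Its fall to HL thus passed the 2-fold limit on library totals and was smaller than 2-fold with TMM scaling. Its counts were whole numbers in all 9 libraries, and its implied length was 4727 bases.

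Cluster-5009.35539 was the second most abundant member in ML and nearly absent from HL. It had 181, 182 and 150 CPM in LL, 481, 537 and 510 in ML and 0, 1.81 and 0 in HL. The value of 1.81 CPM stood for 35.61 estimated counts, and 3 counts would be 0.156 and 0.160 CPM in the HL libraries at 0. Per length it averaged 135 ± 14.7 FPKM in LL, 401 ± 20.6 FPKM in ML and 0.473 ± 0.820 FPKM in HL (SD, n = 3 each). That was the highest FPKM of any member in ML. The log2 fold change was 1.54 (SE 0.349) for ML against LL and −7.91 (SE 0.574) for HL against LL. The size of the HL value rests on a single library. A member with a neighbouring number, also with non-whole counts, had 75.7, 72.5 and 74.5 CPM in LL and 161, 172 and 165 in ML. In HL it stayed at 31.4, 32.2 and 36.1 CPM, with a ratio of LL to HL of 2.23. Whether reads were divided between these neighbours was not tested.

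Cluster-5009.52106 had the same form at a lower level. It had 20.9, 19.0 and 20.9 CPM in LL, 58.5, 51.2 and 55.7 in ML and 1.23, 0 and 0 in HL, where 1.23 CPM stood for 23.69 estimated counts. Its log2 fold change was 1.41 (SE 0.372) for ML against LL and −5.42 (SE 0.608) for HL against LL. Its implied length of 1273 bases was close to the 1268 bases of Cluster-5009.35539, and both held non-whole counts. Whether the sequences are related could not be examined.

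Cluster-5009.39667 was low in HL but present in all 3 libraries. It had 176, 175 and 178 CPM in LL, 500, 508 and 462 in ML and 9.65, 6.38 and 6.77 in HL. Means were 176 ± 1.52, 490 ± 24.4 and 7.60 ± 1.78 CPM (SD, n = 3 each) in LL, ML and HL. The fall to HL was 23.2-fold relative to LL, with a log2 fold change of −4.38 (SE 0.130), and the rise in ML had a log2 fold change of 1.44 (SE 0.108). This cluster, of 4469 bases, also held non-whole counts.

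**Figure D2:**
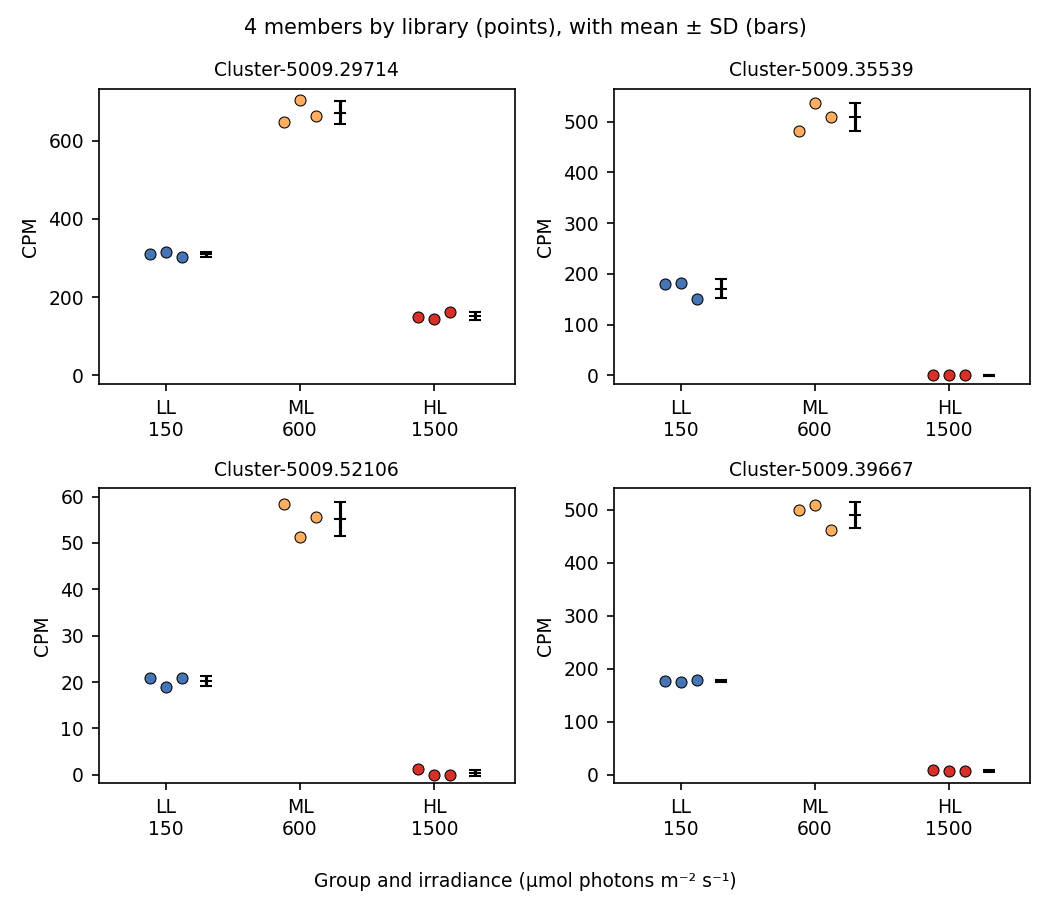
CPM of the 4 members given by identifier in each library (points) with the group mean and SD (bars), by group and irradiance, on linear axes with a separate scale for each cluster. In every panel the ML points lie above the LL points and these above the HL points, which sit at 144 to 162 CPM for Cluster-5009.29714 and near 0 for the other 3.

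Among the remaining abundant members, the fourth in rank by ML mean was the longest, at 12381 bases. It had 103, 117 and 124 CPM in LL, 419, 448 and 330 in ML and 36.4, 26.3 and 28.5 in HL. The fifth, of 5016 bases, had 77.3, 79.1 and 67.1 CPM in LL, 267, 300 and 240 in ML and 23.6, 30.8 and 34.0 in HL. In both, the groups stayed apart, as the rule required, and ML replicate 3 was the lowest ML library. The 4 members of at least 100 CPM in LL had ratios of LL to HL of 2.04, 283, 23.2 and 3.77 in the order of their ML means, while in the 3 lower abundance classes the median was 2.47 to 2.51.

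The largest rises belonged to members that were not among the 4. A cluster of 2289 bases had the highest ratio of ML to LL, at 4.81, with 8.01, 9.94 and 9.73 CPM in LL, 44.8, 53.9 and 34.6 in ML and 2.74, 1.93 and 1.88 in HL. The next, of 8320 bases and with whole counts, had a ratio of 4.48, with 30.9, 38.4 and 46.3 CPM in LL, 194, 202 and 122 in ML and 12.2, 8.45 and 5.37 in HL. The third had a ratio of 4.01 and stood at 7.20, 8.14 and 10.9 CPM in LL, 41.5, 38.9 and 24.7 in ML and 2.40, 1.53 and 1.86 in HL. These members were lowest in ML replicate 3 and also fell more than 4-fold below LL in HL.

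The deepest falls were found in clusters with non-whole counts. Whole counts in all 9 libraries, within 0.001, were seen in 59 members (40.1%), and in 44.1% of all 14830 clusters with an LL mean of at least 5 CPM. The 59 whole-count members had ratios of LL to HL of up to 4.53, with a median of 2.49. The 88 others had a median of 2.53 and reached 283, and the 8 members with the largest falls were all among them. An HL library at 0 occurred in 6 members, all with non-whole counts. The part of divided reads in the near-complete losses was not tested.

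The pattern could be read in libraries that had not chosen the clusters. The rule was applied to 2 libraries of each group, and the libraries with the remaining replicate number were then examined, 1 per group, so that no test was possible. Libraries of a group may be preparations of the same culture, so those read may not be independent of those that chose. With replicate 1 left for reading, 159 of 163 clusters chosen had ML above LL and LL above HL in the libraries not used. With replicate 2 it was 114 of 117, and with replicate 3 it was 171 of 177. Over all clusters with an LL mean of at least 5 CPM in the libraries used for choosing, the same order was seen in 26.0%, 29.7% and 28.7%. The sizes were smaller than the limits asked for in many clusters. Steps of at least 1.5-fold on both sides remained in 87.1%, 94.9% and 86.4% of the clusters chosen, against 5.38%, 7.24% and 5.45% of all. Steps of at least 2-fold on both sides remained in 47.2%, 67.5% and 33.9%, against 1.14%, 1.71% and 0.879% of all. The median ratio of ML to LL in the libraries read was 2.18, 2.43 and 2.16, and that of HL to LL 0.403, 0.357 and 0.421.

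**Figure D3:**
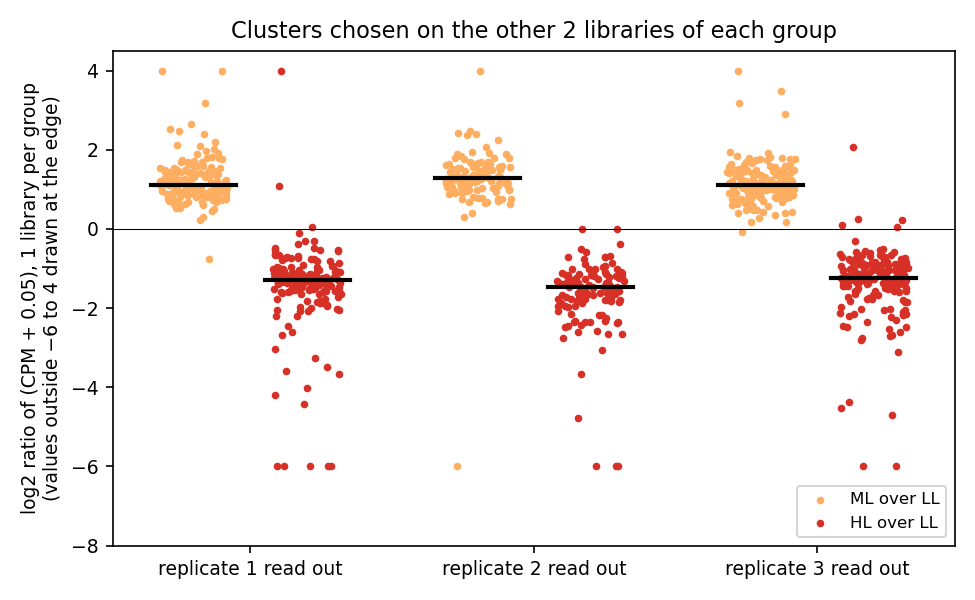
Log2 ratios of ML over LL (orange) and of HL over LL (red) in the libraries of 1 replicate number, for clusters chosen on the other libraries, with 0.05 CPM added; black bars are medians, and 16 of the 914 ratios lie outside −6 to 4 and are drawn at the edge. The orange points lie almost wholly above 0 and the red ones below, for each of the 3 replicate numbers.

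Among the ML libraries, replicate 3 was the lowest for 108 members (73.5%), against 33.2% of all clusters with an LL mean of at least 5 CPM. Replicate 2 was the highest for 118 members (80.3%), against 46.9%. The median member stood 0.14 log2 units below its ML mean in replicate 3 and 0.14 above it in replicate 2, while the medians over all these clusters were 0.00 and 0.03. Members together held 0.728%, 0.789% and 0.665% of the counts in ML replicates 1, 2 and 3. In HL, replicate 2 was the lowest for 79 members (53.7%, against 39.6% of all), and the members held 0.102%, 0.0917% and 0.103% of the counts. The LL libraries were even, at 0.288%, 0.298% and 0.285%. Without ML replicate 3 the members held 0.759% of the ML counts, and the rule found 179 clusters, 143 of the 147 among them. Without ML replicate 2 they held 0.697%, and the rule found 109 clusters, 107 of the 147 among them.

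Among clusters with LL means of 5 to 30 CPM, members had a larger median spread between replicate libraries than the others. For members with an LL mean below 30 CPM the median coefficient of variation reached 11.5% among the LL libraries, 11.5% among the ML libraries and 17.5% among the HL libraries. For the other clusters with LL means of 5 to 30 CPM it was 9.26%, 9.30% and 8.93% in LL, ML and HL. Within this range 77 members lay at 5 to 10 CPM and 49 at 10 to 30, against 4172 and 5592 of all clusters. The members thus lay more often at the lower end. The HL difference also goes together with the low HL counts of the members. The part of level in these differences was not tested.

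The members had a longer median length than the other clusters, a property that the rule did not use. Length was derived from the ratio of counts to FPKM. It went down to 35 bases in the members and to 8 in the 14830, so low values may not be true cluster lengths. Its median was 2011 bases over the members (quartiles 1146 and 3126), 1349 over all 14830 clusters with an LL mean of at least 5 CPM, and 1074 over all tested. Clusters of at least 2500 bases made up 32.7% of the members (48 clusters) and 18.3% of the 14830, and clusters under 500 bases 6.12% (9 clusters) and 11.0%. Seen by class, 1.76% of clusters of at least 2500 bases were members, 0.990% of those from 1000 to under 2500, 0.587% of those from 500 to under 1000 and 0.552% of the shortest. No test of these shares was run. From the shortest class of members to the longest, the median ratio of ML to LL was 2.31, 2.15, 2.21 and 2.33, with no steady order, and that of LL to HL was 2.30 in the shortest class and 2.53 in the longest, with the classes between in order of length.

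Over all clusters, the abundance ratios between irradiances also differed by length class. In the class of at least 2500 bases the median log2 ratio over all 14830 clusters was 0.05 for ML over LL and −0.43 for HL over LL, and in the class under 500 bases −0.23 and 0.17. When each library was centred on the median of the clusters in the same length class, a step added after the data had been seen, the rule found 120 clusters, of which 94 were among the 147. Such centring also rescales each library as a whole, and TMM-adjusted sizes without length classes gave 90 clusters, all among the 147. How much of the change belongs to length cannot be told apart from the scaling. The part of these class differences in the length of the members was not tested.

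**Figure D4:**
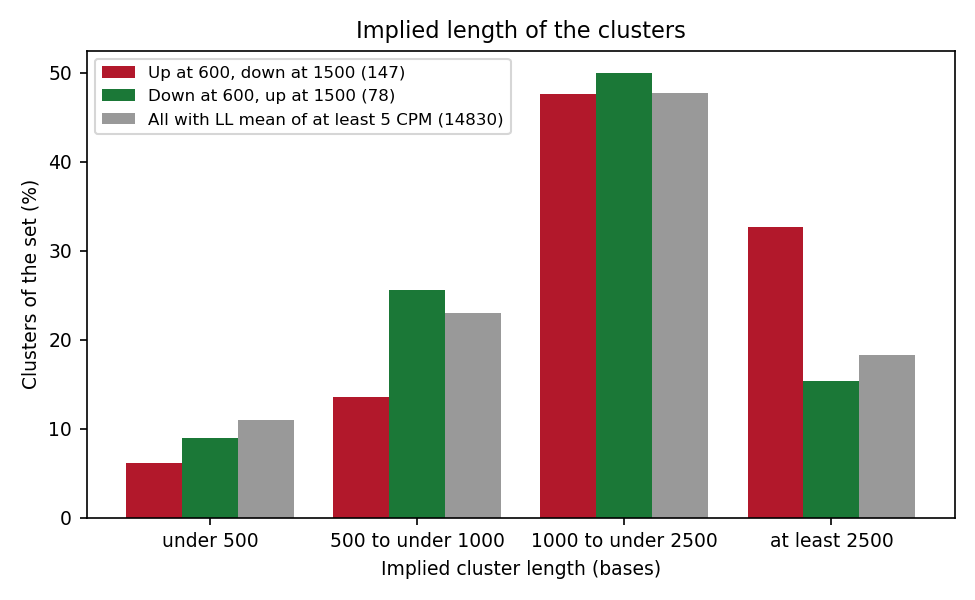
Percentage of clusters in 4 classes of implied length, for the 147 members (red), the 78 clusters of the reverse rule (green) and all 14830 clusters with an LL mean of at least 5 CPM (grey). The red bar is the highest of the 3 in the class of at least 2500 bases, at 32.7%, and the lowest in both classes below 1000 bases.

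Scarce clusters were members more often than abundant ones. Of the clusters with LL means of 5 to 10 CPM, 1.85% were members (77 clusters), of those with 10 to 30 CPM 0.876% (49), of those with 30 to 100 CPM 0.479% (17) and of those with at least 100 CPM 0.264% (4). No test of these shares was run either.

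The reverse rule, for clusters down at 600 and up at 1500 with the same limits, found 78 clusters on library totals, against the 147. Which set is larger depends on the scaling: with TMM-adjusted library sizes there were 90 members and 116 clusters of the reverse rule, and with RLE-adjusted sizes 82 and 121. The 78 clusters held 0.205% ± 0.00703 of the counts in LL, 0.0528% ± 0.00652 of those in ML and 0.603% ± 0.0136 of those in HL (SD, n = 3 each). The sets differed in more than direction. The 147 members had a median length of 2011 bases and 40.1% of them had whole counts, while the 78 had 1352 bases and 12.8%. In the group where the set was low, the median coefficient of variation was 16.7% for the members in HL and 41.1% for the reverse set in ML. The reverse set was also scarcer there, with a median of 2.51 CPM in ML, against 3.51 CPM for the members in HL. The differences between the sets were not tested. On library totals, over all 14830 clusters of at least 5 CPM in LL, the order HL below LL below ML was seen in 4285 (28.9%), with a median length of 1726 bases, and the order ML below LL below HL in 3744 (25.2%), with a median length of 969 bases.

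**Figure D5:**
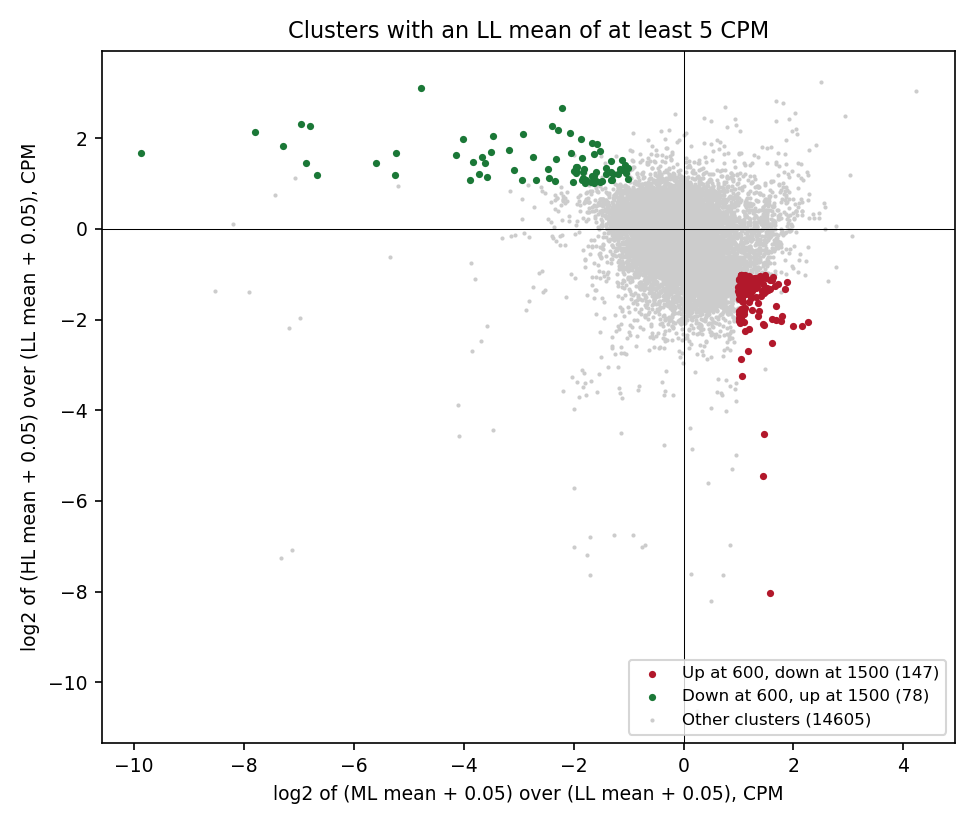
Log2 ratio of means of HL over LL (vertical) against ML over LL (horizontal) for the 14830 clusters of at least 5 CPM in LL, with 0.05 CPM added, showing the 147 members (red), the 78 clusters of the reverse rule (green) and the 14605 others (grey). Both axes share the LL libraries, and positions along them are not independent. In 104 of the 147 members the rise lies below 2.5-fold, and in 41 the fall is at least 3-fold.

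All 147 member identifiers begin with the number 5009, as do those of all 14830 clusters of at least 5 CPM in LL, and some have neighbouring second numbers. In 7 cases the second numbers of a pair of members differed by 1, and in 5 cases by 2. With gaps of at most 5, 21 members formed 9 runs, the longest with 4 members in a span of 5 numbers. Those 4 had lengths of 1107 to 3621 bases, ratios of ML to LL of 2.49 to 4.01 and ratios of LL to HL of 2.86 to 4.53, above the medians of all members. The first of them had 29.9, 31.1 and 38.0 CPM in LL, 88.3, 92.0 and 66.1 in ML and 13.4, 9.94 and 11.2 in HL, and the third 30.01, 38.6 and 46.8 in LL, 137, 142 and 93.4 in ML and 13.5, 7.60 and 7.33 in HL. In all 4, ML replicate 3 was the lowest ML library.

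Of the 77 clusters of at least 5 CPM in LL numbered next to a member without being one, 41.6% had the order HL below LL below ML, as did 40.3% of the 67 at a distance of 2, 32.6% of the 86 at a distance of 5, 33.8% of the 77 at a distance of 10 and 17.1% of the 82 at a distance of 100. It was 28.9% over all, and no test of these shares was run. The median log2 ratio of ML over LL was 0.03 at a distance of 1 and −0.07 at a distance of 2, against −0.12 over all, and that of HL over LL was −0.30 and −0.28, against −0.19 over all. Of the 78 clusters numbered next to those of the reverse rule, 26.9% had this order. The meaning of the numbering is unknown here, and neighbours may share reads, so neighbouring members may not be separate transcripts.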

How the data were processed

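Per the labels' protocols, Trizol RNA (1.5 µg a sample) was made into Illumina libraries with the NEBNext Ultra kit. The authors deposited estimated counts and FPKM values (scaled by the authors to length and depth) for each cluster, per the file headers. The counts carry decimals in 27.9% to 31.0% of clusters per library. DESeq 1.10.1 is named in the submitters' processing notes. Assembler, aligner and counter: not given in the sources used here. No identifier matched the Dunsal1 v. 2 gene table (0 of 76875), so no gene lists, coordinates or sequences are given.

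CPM used library totals. The estimated counts, rounded to whole numbers, entered edgeR 4.0.16 (R 4.3.3) with its default expression filter, which left 34377 clusters, TMM factors and a robust quasi-likelihood fit to all 9 libraries with group as the only term, adjusted p below 0.05. The fit was tested on simulated data. A standard error is the log2 fold change over the square root of F. Implied length is the median, over libraries of at least 0.5 FPKM, of counts per FPKM and library total. Alternatives used RLE factors, library totals, no filter, DESeq2 1.42.0, limma 3.58.1 on log2(FPKM + 1) and log2(FPKM + 0.1), a 1.5-fold minimum, a replicate block and each library left out. Libraries of a group differed by more than counting noise (chi-square per degree of freedom 6.77 to 11.1), so none was a repeat deposit. The members, the rule for the 4 identifiers and the comparisons were chosen with earlier results of these data known.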

Additional observations from a re-analysis of the deposited data

How the results depend on the processing

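The number of members depended on the limits and on the scaling. With TMM-adjusted library sizes the rule found 90 clusters and with RLE-adjusted sizes 82, all of them among the 147. TMM factors were 0.905 to 0.928 in HL, against 0.992 to 1.06 in LL, which raises HL values relative to LL by construction. FPKM in place of CPM gave 150 and no rule on overlap 155. An LL minimum of 10 CPM gave 70 clusters and one of 1 CPM 407, a 1.5-fold limit 861 and a 3-fold limit 9, and whole-count clusters alone, added after the data had been seen, 59. Leaving out 1 library at a time gave 109 to 179. Without LL replicate 1, 2 or 3 there were 152, 160 and 137 clusters, of which 124, 128 and 108 were among the 147. Without HL replicate 1, 2 or 3 there were 154, 139 and 161, of which 141, 134 and 142 were among them. The rule for the opposite pattern gave 78 clusters on library totals, 116 with TMM sizes and 121 with RLE sizes, an alternative added after the data had been seen. The 3 choices on fewer libraries made 457 selections of 253 distinct clusters, 66 of them selected in all 3. In 444 of the selections the order was kept in the libraries not used, in 406 with steps of 1.5-fold and in 216 with steps of 2-fold.

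With the 147 members kept, the calls changed little. Leaving out 1 library gave 135 to 144 called higher in ML than in LL (12.5% to 16.0% of all clusters tested), 136 to 142 lower in HL than in LL (17.7% to 20.7%), 146 to 147 lower in HL than in ML (25.2% to 27.9%) and 131 to 140 in both directions against LL (4.29% to 5.67%). Of the other settings, a 1.5-fold minimum gave the lowest count in both directions, 104, where 0.669% of all clusters were called, and the rest gave 132 to 145, where 2.09% to 8.57% were. All 147 members kept the sign of both differences against LL in each of the fits. The rule had chosen on the same 9 libraries, so neither the signs nor the calls are separate evidence. Replicate numbers are not said to mark a shared culture, and libraries of the same number did not deviate together (correlations −0.039 to 0.011). With a replicate block, 136, 141, 147 and 135 members were called in the same order of comparisons, against 14.7%, 20.2%, 27.9% and 5.23% of all clusters.

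Of the summed FPKM, the members held 0.168% in LL, 0.382% in ML and 0.0552% in HL, and without the 4 members given by identifier 0.222%, 0.555% and 0.0829% of the counts. Leaving out 1 library, the share of counts lay between 0.286% and 0.293% in LL, between 0.697% and 0.759% in ML and between 0.0968% and 0.103% in HL. Depth limits the HL values most, where a member had a median of 69.5 counts per library.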
